A study of Mus musculus with 2 samples.

Results

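The genes described here encode the proteins of the cytosolic ribosome and of the mitochondrial ribosome. Members were chosen by their symbols: every non-control probe present on both arrays was taken whose RefSeq accession belongs to a mouse gene symbol of the form Rpl, Rps or Rplp with a number (cytosolic) or Mrpl or Mrps with a number (mitochondrial). The rule gave 224 of 41174 probes, for 153 of 32235 genes or accessions on the array. Of these probes, 108 belong to 75 cytosolic genes and 116 to 78 mitochondrial genes. Among the symbols of the annotation table, 78 match the cytosolic pattern and 84 the mitochondrial one. The 6 unmatched mitochondrial names are pseudogenes.

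The data compare organoids of the small intestine, which are epithelial structures grown from crypts, with and without the cytokine RankL, which is known to induce M cells, the epithelial cells that take up antigen over Peyer's patches. All organoids came from wild-type mice and grew in crypt medium with EGF, Noggin and R-spondin, which both groups shared. The labels give a range of 50 to 200 ng/ml for recombinant mouse RankL and a change of medium on days 2 and 5. They state neither the dose and harvest time of these RNAs nor the number of mice or any pooling of organoids. The data are 2 dual-colour arrays on 1 slide: RankL RNA was labelled with Cy3 on array 1 and with Cy5 on array 2, the dye swap of the first. Since both arrays carry the same RNA pair, n is 1 per group and no test was possible. Every ratio below is the mean log2 ratio of RankL over untreated over both arrays, and ± is the SD of the 2 arrays, which covers dye and array error and not the spread between cultures.

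Ribosomes of the cytosol translate the messages of nuclear genes, and their proteins are made in nearly equal amounts from very abundant mRNAs. Many of these mRNAs begin with a run of pyrimidines at the 5' end, the TOP element, through which mTOR signalling and the protein LARP1 control their translation and stability. Mitochondrial ribosomes are built from another set of nuclear genes, and they translate only the few proteins of the respiratory chain and ATP synthase that mitochondrial DNA encodes. In the intestinal crypt, dividing progenitors make many ribosomes, and differentiated epithelial cells depend on mitochondrial respiration.

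Start regions of a few members are printed because TOP elements and shared promoter words are what these gene families are known for at their starts. Of the member genes, 56 cytosolic and 69 mitochondrial genes matched the RefSeq promoter table (mouse build GRCm38.p6, 250 bases before to 50 after each start), with 66 and 75 promoters. An unbroken run of at least 8 C or T bases that reached within 5 bases of the annotated start was present in 33.3% of the cytosolic promoters, in 9.33% of the mitochondrial ones and in 9.38% of all 32851 promoters of the table. The 4 cytosolic genes of lowest ratio whose run lies inside the window are shown, with the run in capitals, from 60 bases before to 20 after the start, 5' to 3' on the gene's strand. Rpl4 is at chr9:64173327-64173406 on the plus strand, Rps6 at chr4:86857348-86857427, Rpl13a at chr7:45128726-45128805 and Rps18 at chr17:33955646-33955725, these on the minus strand.
Rpl4: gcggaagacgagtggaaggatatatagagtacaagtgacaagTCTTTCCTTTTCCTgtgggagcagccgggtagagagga
Rps6: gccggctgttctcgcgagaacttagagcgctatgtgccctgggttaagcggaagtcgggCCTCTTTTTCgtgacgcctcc
Rpl13a: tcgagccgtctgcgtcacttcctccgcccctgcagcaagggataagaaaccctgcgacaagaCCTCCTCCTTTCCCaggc
Rps18: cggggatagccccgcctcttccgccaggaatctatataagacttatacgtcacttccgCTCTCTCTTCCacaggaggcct

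The run was 14 bases long in Rpl4 and Rpl13a, 11 in Rps18 and 10 in Rps6. In Rps18 and Rps6 the run spanned the annotated start. In Rpl4 it ended before that start and in Rpl13a it began after it. Whether the runs are TOP elements of the mRNAs was not tested. The word CCGGAAG, a core of Ets family binding sites, was searched on both strands over the whole promoter. It was found in 36.4% of the cytosolic and 34.7% of the mitochondrial promoters, against 8.86% of all promoters. Its reverse strand overlapped a pyrimidine run in 1 cytosolic and 0 mitochondrial promoters. An exact 10-letter word of Nrf1, a regulator of mitochondrial genes, was on either strand in 3.03% of cytosolic and 4.0% of mitochondrial promoters, against 0.971% of all. An exact 10-letter word of Yy1 was in 6.06% and 6.67%, against 0.852%. The mitochondrial genes shown next hold the Ets word, in capitals on either strand, and span the set from low to high ratios. Mrpl48 has other annotated starts whose promoters lack the word, and the start with it is shown. Mrpl48 is at chr7:100583111-100583190 and Mrpl43 at chr19:45006423-45006502 on the minus strand, Mrps27 at chr13:99344726-99344805 and Mrpl33 at chr5:31613891-31613970 on the plus strand.
Mrpl48: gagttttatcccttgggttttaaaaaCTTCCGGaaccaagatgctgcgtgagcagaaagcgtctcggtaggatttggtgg
Mrps27: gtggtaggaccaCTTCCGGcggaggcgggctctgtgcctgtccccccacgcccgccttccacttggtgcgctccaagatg
Mrpl43: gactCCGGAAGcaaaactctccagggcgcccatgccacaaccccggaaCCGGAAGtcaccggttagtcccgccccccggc
Mrpl33: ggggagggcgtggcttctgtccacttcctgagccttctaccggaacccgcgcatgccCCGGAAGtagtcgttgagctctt

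A promoter match is a description of letters and not of a factor's binding. Among the cytosolic genes, the 22 with a pyrimidine run had a median ratio of -0.41 and the 34 without one of -0.31, both inside the quartiles of the set given below. The 7 mitochondrial genes with a run had a median of -0.14 and the 62 without one of -0.15. The 26 mitochondrial genes with the Ets word had a median of -0.10 and the 43 without it of -0.21. For the 23 cytosolic genes with that word and the 33 without it the medians were -0.33 and -0.40.

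All 153 genes were measured, meaning that in either RNA at least 1 probe stood well above background on both arrays, and each gene takes its brightest measured probe. All 106 measured cytosolic and 109 measured mitochondrial probes were above background in both RNAs, so no member passed the filter through 1 group alone. The 9 unmeasured probes are further probes of Mrpl1, Mrpl11, Mrpl17, Mrpl35, Mrpl41, Mrpl57, Mrps25, Rpl37 and Rps15a, whose other probe was measured. Each array had 45018 spots, of which between 38.3% and 43.4% were well above background per RNA, and 0 non-control spots were saturated. Spot brightness includes the probe's own properties, and it is used here only to find genes measured under like conditions. Of 10 markers of intestinal epithelium fixed as a list, 10 were measured, at a median ratio of -0.06, and the list's summed intensity was 147400 and 155400 in RankL and 174500 and 159500 in untreated RNA on arrays 1 and 2. Of the lists for other cell types, 2 of 7 markers of mesenchyme (Col1a2 and Vim), 0 of 4 of endothelium, 0 of 6 of leukocytes (5 of which had a probe), 1 of 3 of muscle (Acta2, 0.62) and 2 of 4 of neurons and glia (S100b, well above background in RankL RNA alone, and Tubb3, 0.33) were measured. The summed muscle list was 1823 and 1927 in RankL and 1169 and 1279 in untreated RNA. That of neurons and glia was 341 and 383 against 220 and 225, and that of mesenchyme 342 and 300 against 301 and 297. The part of these cells in the ribosomal values was not tested.

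Cytosolic ribosomal protein mRNAs were lower in RankL-treated organoids in the median, by a small amount that depended on the array and the normalization. Their median ratio was -0.39, which is 1.31-fold lower, with quartiles of -0.46 and -0.21 and a range from -0.92 to 0.11. It was -0.44 on array 1 and -0.24 on array 2, -0.22 in the scanner software's own ratios and -0.73 when each array was centred on its median without loess. The mean was below 0 in 72 of 75 genes (96.0%), against 49.0% of all 12877 measured genes, whose median was 0.01. Of the 75 genes, 54 were below 0 on both arrays and 1 above 0 on both, against 35.1% and 37.3% of all genes, and 20 had opposite signs on the arrays. In bulk RNA, fewer cells of a type and less of an RNA per cell cannot be told apart.

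The differences were small for single genes. Under a 2-fold rule (a mean of 1 or more in size, with each array reaching 0.5 that way) 0 members of either set were called, against 2.5% of all genes lower and 5.47% higher. Under a smaller rule (a mean of 0.5 or more, with each array reaching 0.25) 13 cytosolic genes were lower and 0 higher, against 9.62% of all genes lower and 12.8% higher. Of other genes in the middle range of cytosolic brightness, between the quartiles of 13.84 and 15.95 on the log2 scale, 9.66% were lower under that rule, and their median ratio was 0.00 over 145 genes. The mean was below 0 in 50.3% of these.

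Mitochondrial ribosomal protein mRNAs were spread on both sides. Their median ratio was -0.15, or 1.11-fold lower, with quartiles of -0.32 and -0.03 and a range from -0.71 to 0.73. The mean was below 0 in 60 of 78 genes (76.9%), and 43 genes were below 0 and 15 above 0 on both arrays. Under the smaller rule 8 were lower and 3 higher, and the 10.3% that were lower lie near the 9.62% of all genes. Other genes of the middle range of mitochondrial brightness had a median of 0.02 over 2733 genes, with 48.1% below 0 and 11.8% lower under the smaller rule.

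**Figure D1:**
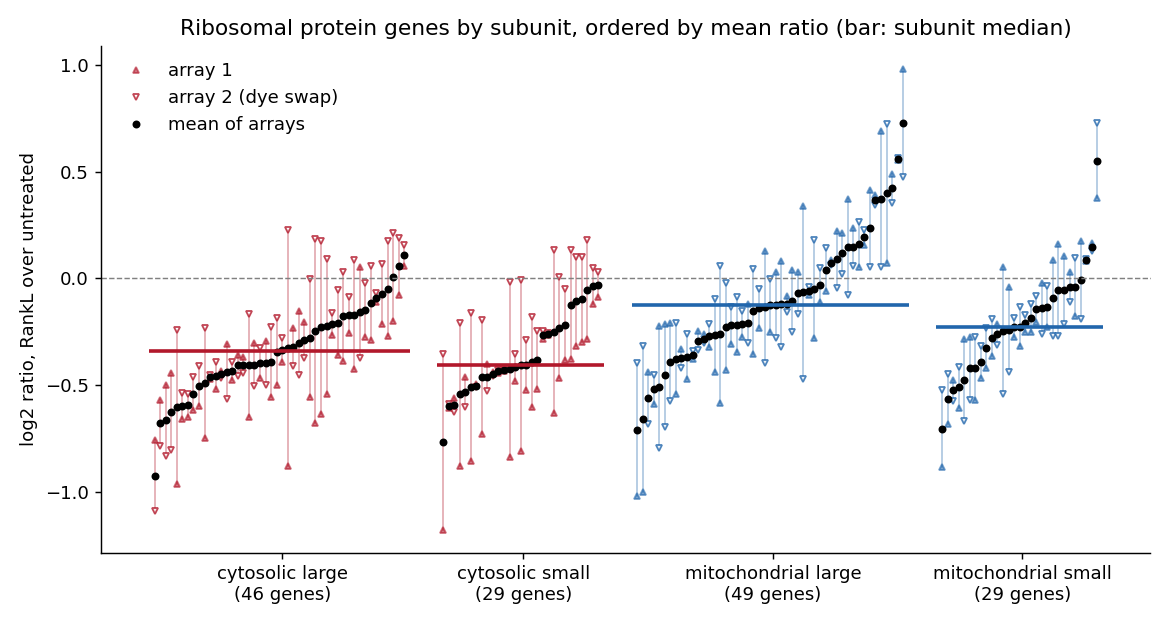
Log2 ratio of RankL over untreated for each of the 153 genes, ordered by mean ratio within the 4 subunits. Upward triangles are array 1, downward open triangles array 2, black points their mean, and bars the subunit medians of -0.34, -0.41, -0.13 and -0.22; the cytosolic points lie almost all below the dashed line at 0 while the mitochondrial ones reach 0.73.

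In the large subunit of the cytosolic ribosome, which joins amino acids, 46 genes had a median ratio of -0.34, and 43 were below 0. Rpl4, a core protein that lines the exit tunnel, had the lowest ratio of all members. Its ratio was -0.76 on array 1 and -1.09 on array 2 (-0.92 ± 0.23), from normalized log2 intensities of 10.44 in RankL and 11.2 in untreated RNA on array 1 and of 10.26 and 11.35 on array 2. RankL was the lower RNA on both arrays, and the gene ranked 375th from the lowest of 12877. Rpl3, which reaches to the peptidyl transferase centre, was -0.57 and -0.78 (-0.68 ± 0.15). Rpl10a, near the exit site of tRNA, was -0.50 and -0.83 (-0.66 ± 0.24). Rpl31, at the mouth of the exit tunnel, was -0.44 and -0.80 (-0.62 ± 0.25). These were lower on both arrays, by somewhat more on the dye swap.

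Rpl5, which with Rpl11 carries the 5S rRNA and can bind the p53 regulator Mdm2, was among the brightest members and had close values on the arrays, -0.66 and -0.54 (-0.60 ± 0.09). Its partner Rpl11 was -0.36 and -0.05 (-0.21 ± 0.22). Rpl32 was -0.65 and -0.54 (-0.59 ± 0.08), Rpl29 was -0.54 ± 0.11, and Rpl14 was -0.50 ± 0.13. These 8 genes, Rpl4, Rpl3, Rpl10a, Rpl31, Rpl5, Rpl32, Rpl29 and Rpl14, are all of the large subunit that met the smaller rule. Rpl13a, which can also leave the ribosome to silence inflammatory mRNAs, had a mean of -0.60 ± 0.51 and missed it because array 2 read -0.24 where array 1 read -0.96.

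The highest genes of the large subunit were near 0. Rpl27 was 0.06 and 0.16 (0.11 ± 0.07), and it was the 1 cytosolic gene above 0 on both arrays. Rpl38, known for the translation of Hox mRNAs, was -0.08 and 0.19 (0.06 ± 0.19). Rpl21 was -0.20 and 0.21 (0.01 ± 0.29), Rplp1 was -0.05 ± 0.32 and Rpl7 was -0.07 ± 0.20. The last 4 differed in sign between arrays, and the dimmer probes of Rpl7 read -0.11 and -0.44. Rplp0, Rplp1 and Rplp2, the stalk that recruits elongation factors, were all 3 below 0 on array 1 (median -0.29) and above 0 on array 2 (median 0.09), with a median of the means of -0.12. The 18 cytosolic genes of log2 intensity 16 to 18, where the stalk lies, had the same split, -0.38 and 0.09, as did the 24 other genes there, -0.22 and 0.18.

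In the small cytosolic subunit, which reads the mRNA, all 29 genes had a mean below 0, with a median of -0.41 and a range from -0.76 to -0.03. On array 1, 29 were below 0, and on array 2, 21. Rps6, the target of S6 kinase, was -1.18 on array 1 and -0.35 on array 2 (-0.76 ± 0.58), so its size differed between arrays while its direction did not. Rps19, whose loss causes Diamond-Blackfan anaemia in humans, was -0.60 and -0.59 (-0.60 ± 0.01), with log2 intensities of 9.92 in RankL and 10.51 in untreated RNA on array 2. Its arrays were nearly equal, and RankL was the dimmer RNA on both.

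Rps3a1 was -0.56 and -0.63 (-0.59 ± 0.05), Rps15 was -0.46 and -0.60 (-0.53 ± 0.10), and Rps15a was -0.50 and -0.51 (-0.50 ± 0.01). With Rps6 and Rps19 these are the 5 small-subunit genes that met the smaller rule. Rps18, in the head of the subunit, was -0.88 and -0.21 (-0.54 ± 0.47) and missed it on array 2. The genes nearest to 0 were Rps2 (-0.03 ± 0.08), Rps29 (-0.04 ± 0.12), Rps23 (-0.05 ± 0.33), Rps20 (-0.10 ± 0.28) and Rps16 (-0.11 ± 0.29), each below 0 on array 1 and above 0 on array 2. A second, dimmer probe of Rps2 read -0.45, at -0.35 and -0.55 on the arrays, so its place near 0 rests on its brightest probe. The medians of the subunits, -0.34 and -0.41, lay closer together than the quartiles of either.

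The large mitochondrial subunit held both ends of its set. Its 49 genes had a median of -0.13, with 34 below 0. Mrpl23, by the exit tunnel, was the lowest mitochondrial gene, at -1.02 and -0.40 (-0.71 ± 0.44), from log2 intensities of 11.96 in RankL and 12.98 in untreated RNA on array 1 and 12.41 and 12.81 on array 2. Mrpl48 was -0.999 and -0.32 (-0.66 ± 0.48), Mrpl4 was -0.44 and -0.68 (-0.56 ± 0.17), and Mrpl30 was -0.59 and -0.45 (-0.52 ± 0.10). These 4 met the smaller rule. Mrpl9, at -0.22 and -0.80 (-0.51 ± 0.40), did not.

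Mrpl45 and Mrpl33 were the genes of this subunit that were higher under the smaller rule. Mrpl45, which anchors the ribosome to the inner membrane, was 0.98 and 0.47 (0.73 ± 0.36), but its second, dimmer probe read 0.11. Mrpl33, a small protein with a bacterial counterpart, was 0.55 and 0.56 (0.56 ± 0.01), from log2 intensities of 13.34 in RankL and 12.78 in untreated RNA on array 1 and 13.58 and 13.02 on array 2. RankL was the brighter RNA on both arrays, by nearly the same amount. The next in order did not meet the rule: Mrpl38 was 0.42 ± 0.10 with a second probe at -0.13, Mrpl20 was 0.07 and 0.72 (0.40 ± 0.46), and Mrpl55 was 0.69 and 0.06 (0.37 ± 0.45). Mrpl12, which also binds the mitochondrial RNA polymerase, was -0.38 ± 0.24.

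In the small mitochondrial subunit, 29 genes had a median of -0.22, and 26 were below 0. Mrps9 was -0.88 and -0.52 (-0.70 ± 0.26), Mrps28 was -0.68 and -0.45 (-0.56 ± 0.17), Mrps31 was -0.47 and -0.57 (-0.52 ± 0.07), and Mrps27, a pentatricopeptide repeat protein, was -0.61 and -0.41 (-0.51 ± 0.14). These 4 met the smaller rule, and Mrps35 was just short in the mean (-0.48 ± 0.27). Mrps33 was the exception among the rest, at 0.38 and 0.73 (0.55 ± 0.25), but its dimmer probes read 0.23 and 0.17. Below it came Mrps36 (0.15 ± 0.03), since placed in the oxoglutarate dehydrogenase complex, Mrps18a (0.09 ± 0.01), Mrps16 (-0.01 ± 0.26) and Mrps7 (-0.04 ± 0.19). Mrps30 and Mrps18a carry small-subunit names although structures place them in the large subunit; Mrps30 was -0.39 ± 0.11.

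Probes of 1 gene were compared where several were measured. Of 25 cytosolic and 24 mitochondrial genes with several measured probes, 1 and 2 had probes more than 0.5 apart, and the median distance was 0.17 and 0.21. These were Rpl22, at -0.39 for its brighter probe and -1.02 for the other, and Mrpl38 and Mrpl45, given above. Probes closer than that differed in sign in Mrps2 (-0.24 and 0.23), Mrps36 (0.15 and -0.07), Mrpl3 (from -0.15 to 0.04) and Rpl21 (0.01 and -0.23), genes looked at after their values were seen. Cytosolic ribosomal protein genes have many processed pseudogenes, and how far a probe reads these was not tested.

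The spots of the families differed in brightness. The median log2 intensity was 15.21 for cytosolic and 10.31 for mitochondrial genes. Of the 25 brightest genes of the arrays 14 were cytosolic members, of the 100 brightest 39, and of the 200 brightest 55, while 0 mitochondrial members were among those. The brightest cytosolic members were Rpl37a (-0.23 ± 0.57), Rps18 and Rplp2 (-0.12 ± 0.25), and the brightest mitochondrial ones Mrpl28 (-0.13 ± 0.17), Mrpl14 (0.12 ± 0.14) and Mrpl33. A normalization that depends on brightness is therefore fitted in part on the cytosolic genes themselves.

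Above a log2 intensity of 15, 41 cytosolic genes had a median of -0.26, made of -0.43 on array 1 and -0.02 on array 2. The other 68 genes of that brightness had a median of -0.07, made of -0.18 and 0.10. The arrays thus disagreed there for members and others alike. Below 15, 34 cytosolic genes had a median of -0.43, with -0.48 and -0.40 on the arrays, and 31 of the 34 were below 0 on both. Of the 13 cytosolic genes that met the smaller rule, 11 lay below 15.

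Across the cytosolic genes, brightness and ratio had a Pearson r of 0.44 and a Spearman rho of 0.46 (75 genes), but r was 0.04 on array 1 and 0.57 on array 2. Across the mitochondrial genes r was 0.35 and rho 0.33 (78 genes), and over all genes they were 0.01 and -0.01. Between arrays, the ratios of the cytosolic genes had r 0.17 and rho 0.18, those of the mitochondrial genes 0.53 and 0.48, and those of all genes 0.88 and 0.70. Genes of 1 array share its dyes and its RNA and are no independent replicates, so these are descriptions. The order of cytosolic genes within their narrow range was therefore poorly repeated between arrays.

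**Figure D2:**
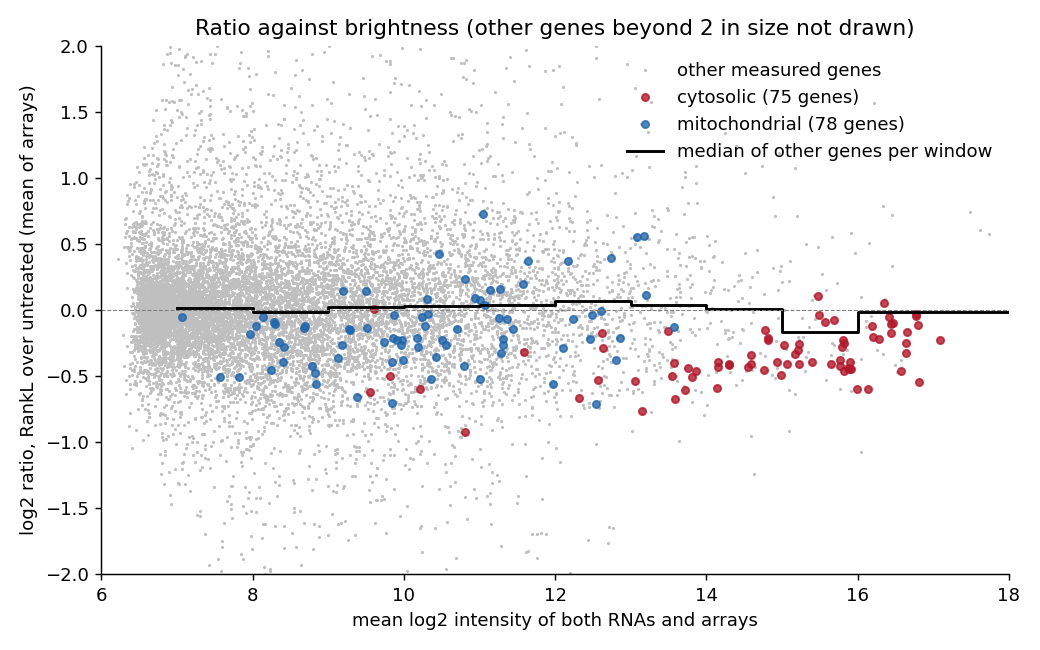
Mean log2 ratio of RankL over untreated against mean log2 intensity, with cytosolic genes in red, mitochondrial genes in blue and other measured genes in grey, and the black steps as the median of the other genes per intensity window. Cytosolic genes with a median brightness of 15.21 lie to the right and mostly below the steps; the families meet only between about 9.55 and 13.57.

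The families were then compared where their brightness overlaps. In the shared range of log2 intensity, from 9.55 to 13.57, there were 15 cytosolic genes with a median of -0.50, 53 mitochondrial genes with a median of -0.14 and 3111 other genes with a median of 0.04. The cytosolic median was -0.46 on both arrays, so the arrays agreed here. Of the 15 cytosolic genes 14 had a mean below 0, 13 were below 0 on both arrays and 9 were lower under the smaller rule, against 46.8%, 34.8% and 12.3% of the other genes of the range. For the 53 mitochondrial genes these counts were 37, 28 and 5, and 3 were higher under the smaller rule, against 17.1% of the others.

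Setting each cytosolic gene beside the mitochondrial gene of closest brightness, within 0.5 on the log2 scale and each used once, gave 14 pairs. The cytosolic gene had the lower ratio in 12 of 14 pairs, and in 10 on both arrays. The median of the pair differences, cytosolic minus mitochondrial, was -0.40, with quartiles of -0.66 and -0.19, a range from -1.32 to 0.20 and array medians of -0.35 and -0.45. The cytosolic genes of the pairs had a median ratio of -0.52 and the mitochondrial ones of 0.05. The mitochondrial partners were thus higher than the 53 mitochondrial genes of the shared range, whose median was -0.14, and the pair median was -0.31 with matching within 1.0 or with a gene's probes averaged and -0.49 with matching within 0.25.

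The widest pair was Rps6 with Mrpl33, at log2 intensities of 13.15 and 13.18, with a difference of -1.73 on array 1 and -0.92 on array 2. Rpl4 with Mrpl36 (0.23 ± 0.25) differed by -1.17 and -1.15, and Rpl29 with Mrps33 by -0.99 and -1.19. In these the cytosolic gene was low and the mitochondrial gene high on both arrays. Rps19 with Mrpl17 (-0.28 ± 0.03) differed by -0.34 and -0.28, both genes being lower in RankL. The opposite order was seen in Rpl14 with Mrps9, at 0.29 and 0.11, and in Rps15 with Mrpl23, at 0.56 and -0.20, where the mitochondrial partner is among the lowest of its family. Only 14 of 75 cytosolic genes could be paired, and the bright ones, which are most of the set, have no mitochondrial gene to be set against.

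**Figure D3:**
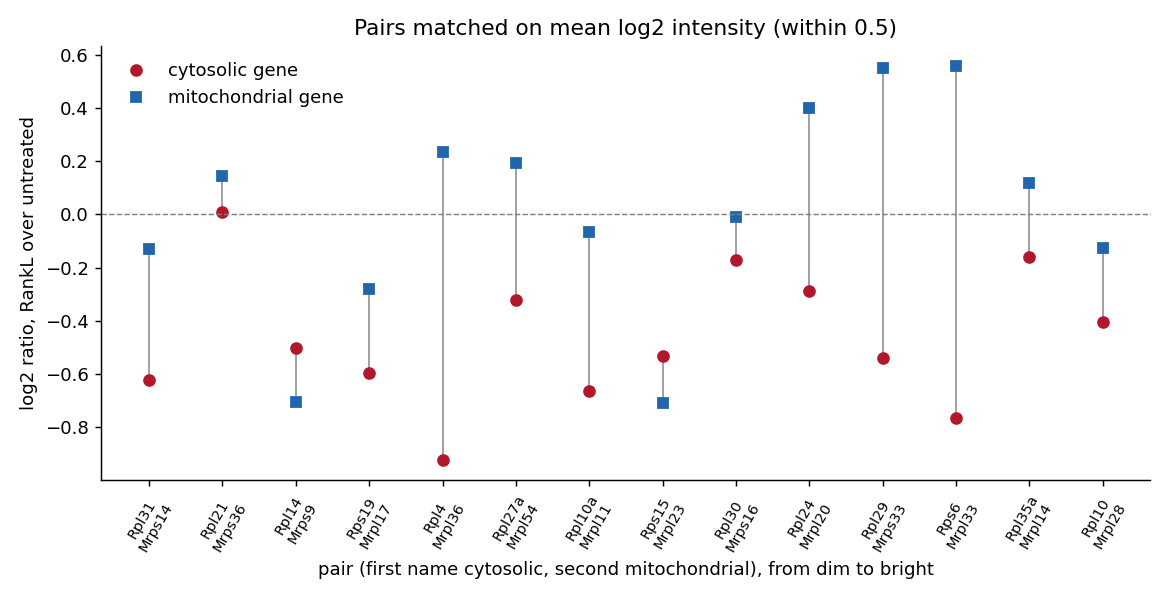
Mean log2 ratio of RankL over untreated for the 14 pairs of a cytosolic gene (red circle) and a mitochondrial gene (blue square) of nearly equal brightness, ordered from dim to bright along the x axis. The circle lies below the square in 12 pairs, and the exceptions are Rpl14 with Mrps9 and Rps15 with Mrpl23.

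Taking from each gene the median ratio of all genes in its bin of brightness (20 bins of equal gene number) left -0.36 for the cytosolic and -0.18 for the mitochondrial median, with 72 and 59 genes below 0. The bins at the bright end each span a wide range of intensity, and most cytosolic genes fell in the brightest one. The same amount was taken from each of these, so no trend of brightness among them was removed. The cytosolic median and count could therefore change little.

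How far the whole families stand apart depended on the normalization. With the log ratios of the scanner software, the cytosolic median was -0.22 and the mitochondrial one -0.24, so that their difference turned from -0.24 to 0.02. In those ratios the 41 bright cytosolic genes had a median of -0.04 and the other 34 of -0.35. With plain median centring of each array in place of loess the medians were -0.73 and -0.29. With a loess fitted without the ribosomal probes, chosen after seeing the data, they were -0.48 and -0.17. The matched-pair median was -0.38, -0.40 and -0.40 in these 3. Median centring and the added loess shift genes of like brightness nearly alike. Neither could therefore move the pair differences much, and their near-equal values there are no further support. Cytosolic genes with a mean below 0 numbered 59 of 75 in the software ratios and 75 of 75 under median centring, and mitochondrial ones 62 and 66 of 78. The mean was below 0 in all 5 normalizations and background settings for 58 cytosolic and 60 mitochondrial genes, and above 0 in all for 0 and 12. The median of all genes was itself -0.03 in the software ratios and -0.06 under median centring, against 0.01 with the main loess. The share of all genes below 0 in these settings is not given here, so these counts include that shift.

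The sizes of single genes moved accordingly. Rpl4 was -1.03 in the software ratios and -1.06 under median centring, and Rps19 -0.59 and -0.72. Rpl5, which is bright, was -0.36 and -1.02, and Rplp0 0.10 and -0.64. Among mitochondrial genes, Mrpl33 was 0.58 and 0.30 and Mrpl23 -0.66 and -0.93. The genes lower under the smaller rule numbered 11 cytosolic and 15 mitochondrial in the software ratios and 47 and 15 under median centring, against 17.9% and 13.5% of all genes.

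**Figure D4:**
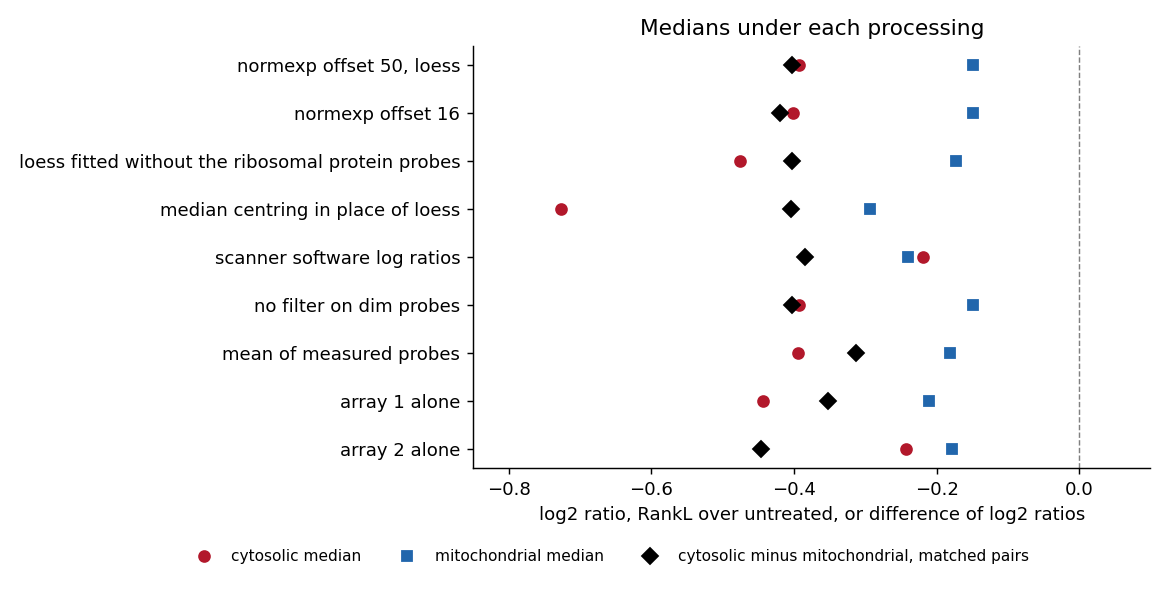
Median log2 ratio of cytosolic genes (red circles) and mitochondrial genes (blue squares) and median difference of the matched pairs (black diamonds) under each processing drawn and for each array alone, all with pairs matched within 0.5. The red circles move between -0.73 and -0.22 and pass the blue square in the scanner software's ratios. The diamonds lie between -0.45 and -0.31, and a normalization that shifts genes of like brightness alike could hardly move them.

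Ribosomal proteins whose names fall outside the rule had a median of -0.21 over 9 measured genes of 12. Rpsa, the laminin receptor and a small-subunit protein, was -0.64 and -0.59 (-0.62 ± 0.03), and its other probe read -0.17. Rack1, the scaffold on the small subunit, was -0.21 ± 0.43, with its other probe at -0.78. Fau, which makes a ribosomal protein fused to a ubiquitin-like protein, was -0.02 ± 0.22.

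Some genes of the ribosome have a paralogue of like name, and these pairs were examined after values had been seen. Rps27 was -0.44 and -0.43 (-0.44 ± 0.01), while Rps27l, a target of p53, was 0.52 and 0.46 (0.49 ± 0.05), which is a difference of -0.92 between them. The gene was lower and its paralogue higher on both arrays. Rps4x was -0.38 ± 0.19 and Rps4l, a dim gene, -1.05 ± 0.02, the lowest of the ribosomal proteins outside the rule. Rpl22 was -0.39 ± 0.23 and Rpl22l1 -0.30 ± 0.16, Rpl36a -0.21 ± 0.07 and Rpl36al -0.36 ± 0.28, and Rpl7 -0.07 ± 0.20 and Rpl7l1 0.13 ± 0.21, differences smaller than their SDs combined.

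Of mitochondrial ribosomal proteins with other names, 5 of 5 were measured, with a median of -0.29 and 4 below 0 on both arrays. Dap3, the GTP-binding protein of the small subunit, was -0.50 ± 0.16, and Gadd45gip1, of the large subunit, -0.43 ± 0.07. Aurkaip1 was -0.05 ± 0.02 and Ptcd3 0.01 ± 0.01.

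The elongation factors and other known TOP mRNAs had the median nearest to that of the cytosolic ribosomal proteins among the lists, with this normalization. Of 15 listed genes 14 were measured, and all 14 had a mean below 0, with a median of -0.31 and 11 below 0 on both arrays, against 35.1% of all genes below 0 on both arrays. Under the smaller rule 2 were lower, near the 9.62% of all genes, and the counts of the lists that follow are to be read against that share and the 12.8% higher. Eif4b, the helper of the eIF4A helicase, was -0.83 and -0.78 (-0.80 ± 0.04). Eef2, the translocase of elongation, was -0.44 and -1.02 (-0.73 ± 0.41), and its probes ran from -0.92 to -0.32. Tpt1 was -0.48 ± 0.27, Eef1b2 -0.43 ± 0.00, Pabpc1 -0.35 ± 0.06 and Eef1a1 -0.28 ± 0.17, with its other probe at -0.85. Eef1d (-0.01 ± 0.23) and Vim (-0.07 ± 0.01) were nearest to 0. The list was drawn up with earlier results of these data known.

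Initiation factors of the cytosol outside the TOP list did not share that position. Eif4b, Eif3f, Eif3h and Eif3e, with means of -0.80, -0.43, -0.17 and -0.17, are initiation factors too but were counted in the TOP list. The contrast of the 2 lists depends in part on that assignment. Over the 31 other initiation factors the median was -0.01, with 17 below 0, 1 lower and 1 higher under the smaller rule. Eif4ebp1, the mTOR-regulated repressor of cap binding, was -0.64 and -0.99 (-0.82 ± 0.25), and Eif4a2 -0.53 ± 0.54. Eif6, which keeps the large subunit from joining too early and also works in its assembly, was 0.99 and 1.03 (1.01 ± 0.02), with its other probe at 0.57. Eif3c was 0.43 ± 0.64, with 4 probes between -0.10 and 0.43.

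Factors of ribosome biogenesis, which process rRNA and assemble subunits in the nucleolus, had a median of -0.11 over 46 genes, with 32 below 0, 3 lower and 1 higher under the smaller rule. Nob1, the nuclease that finishes 18S rRNA, was -0.69 ± 0.12, and Polr1b, a subunit of RNA polymerase I, -0.58 ± 0.26. Eif6 was the highest of this list too, before Riok1 at 0.44 ± 0.61. Genes that control ribosome synthesis had a median of 0.02 over 24 genes, 2 lower and 3 higher under the smaller rule. Myc, which drives ribosome production, was -1.09 and -0.98 (-1.03 ± 0.08), with other probes up to -0.49. Deptor, an inhibitor of mTOR, was -0.93 ± 0.15. Mxd1, an antagonist of Myc, was 2.42 and 2.63 (2.52 ± 0.15), with a second probe at 0.49, and Mycn was 1.22 ± 0.40.

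Factors of mitochondrial translation had a median of -0.15 over 26 genes, made of 0.00 on array 1 (13 below 0) and -0.13 on array 2 (19 below 0), where the mitochondrial ribosomal proteins had -0.21 and -0.18. The mean was below 0 in 17, with 1 lower and 0 higher under the smaller rule. Noa1 was -0.63 ± 0.42 and Mrm1, an rRNA methyltransferase, -0.50 ± 0.58. At the upper end, Nsun4, another rRNA methyltransferase, was 0.35 ± 0.19 and Mtfmt, which formylates the initiator tRNA, 0.31 ± 0.13. Mitochondrial tRNA synthetases had a median of -0.17 over 16 genes, with Fars2 at -0.70 ± 0.24, Ears2 at -0.60 ± 0.03 and Lars2 at 0.61 ± 0.12, while Hars2 was well above background in RankL RNA alone. The Lars2 probe had a log2 intensity of 17.62, where the upper quartile of the list was 9.07. Whether it reads this mRNA alone was not tested. The tRNA synthetases of the cytosol had a median of -0.22 over 19 genes, with Wars at -0.61 ± 0.26, Dars at -0.53 ± 0.40, Lars at 0.60 ± 0.03 and Tars at 0.67 ± 0.08, whose second probe read -0.02.

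The respiratory chain, whose mitochondrially encoded subunits these ribosomes make, had a median of -0.05 over 77 nuclear genes, 6 lower and 2 higher under the smaller rule. Cox7a1, an isoform of a cytochrome oxidase subunit, was -1.78 and -1.70 (-1.74 ± 0.05), and Ndufa6 -0.58 ± 0.02. Ndufb3 was 0.75 ± 0.14 and Ndufa1 0.59 ± 0.00, both of complex I. Genes for mitochondrial DNA expression and biogenesis had a median of -0.13 over 14 genes, but the arrays disagreed, with 0.04 on array 1 (6 below 0) and -0.25 on array 2 (10 below 0). They ran from Ppargc1a, a coactivator of mitochondrial genes, at -0.57 ± 0.21, with Polg, the mitochondrial DNA polymerase, at -0.35 ± 0.25, to Ssbp1 at 0.13 ± 0.12, whose other probe read -0.12, and Yy1 at 0.20 ± 0.07.

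**Figure D5:**
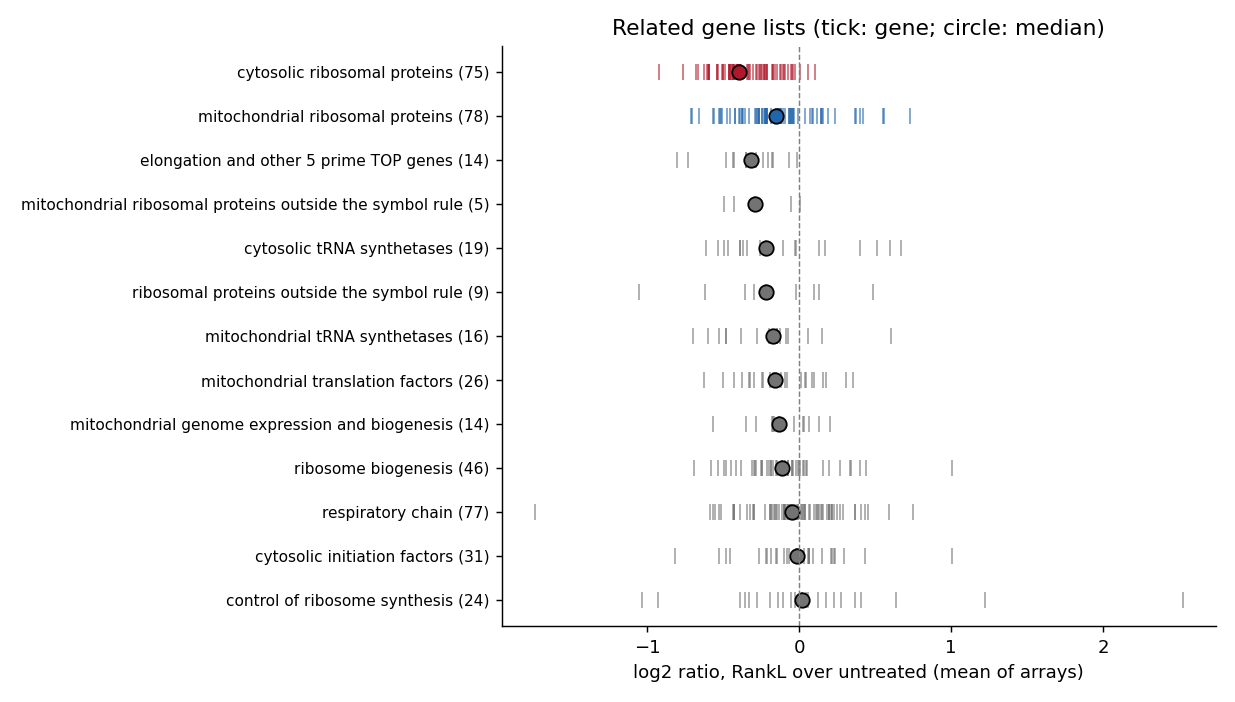
Mean log2 ratio of RankL over untreated for every measured gene (ticks) of each list, with the number of genes in brackets and the list median as a circle. With this normalization the cytosolic ribosomal proteins have the lowest median of the lists shown, -0.39, and the TOP list follows at -0.31. The initiation factors outside the TOP list are at -0.01.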

How the data were processed

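RNA of RankL-treated and untreated organoids was compared on 2 dual-colour Agilent arrays. The deposited scanner files hold spot intensity values (median signal and median local background per channel, not normalized), per the file headers. These name Agilent Feature Extraction, version 10.5.1.1, and an mm9 design, where the submitters' processing notes have 8.5.1.1. The software's log10 ratios, red over green after background subtraction and dye normalization, are deposited too, per the file headers, and the authors' value table differed from them by at most 5.0e-06, run as RankL over untreated, with a median of 0. Flags of 0 or 1 for background, saturation and outliers are also deposited.

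Background was corrected with normexp (offset 50) and ratios were normalized by loess within each array (limma 3.58.1, R 4.3.3), with the 1639 control spots at weight 0. Outlier spots (170 and 164) were left out and spots of 1 probe averaged. Repeated probes counted as above background in at least 0.5 of their spots. Symbols came from a RefSeq table of GRCm38.p6, found for 26918 probes; probe coordinates are not printed, since the array uses another build. The script was tested on simulated data. Both arrays were taken as 1 replicate, on 1 slide, so batch could not be tested, and normexp's offset compresses ratios of dim genes.

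Members and lists were chosen with earlier results of these data known. Genes named are the 5 highest and 5 lowest of each subunit, those meeting the smaller rule, those with disagreeing probes, the 3 brightest of each family and the 2 highest and 2 lowest of each list; others were named after their values were seen.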

Additional observations from a re-analysis of the deposited data

How the results depend on the processing

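All alternatives but 1 were planned; the loess fitted without the ribosomal protein probes was added after seeing the data. The cytosolic median, -0.39, was negative under all 9 alternatives run for it, as was the mitochondrial one, -0.15. Among these, dropping the filter on dim probes and asking for both RNAs above background could change neither median, because each gene kept the same probe. The arrays taken alone are parts of the main mean and no separate data. Median centring gave -0.73, -0.29, a difference of -0.43 and a trend-removed mitochondrial median of -0.16, with 4 cytosolic genes lower under the 2-fold rule, 47 cytosolic and 15 mitochondrial genes lower under the smaller rule and 1 mitochondrial gene higher. With it 13.5% of all genes were lower under the smaller rule, and their share under the 2-fold rule is not given here. The software's log ratios gave -0.22, -0.24, a difference reversed to 0.021, a trend-removed mitochondrial median of -0.22, 1 cytosolic gene lower under the 2-fold rule and 15 mitochondrial genes lower under the smaller rule. In those ratios 17.9% of all genes were lower under the smaller rule. Averaging probes gave a mitochondrial median of -0.18, matched pairs of -0.31, a trend-removed value of -0.16 and 1 mitochondrial gene higher. The added loess gave a mitochondrial median of -0.17 and a trend-removed value of -0.17. Under the smaller rule it put 25 cytosolic genes (33.3%) lower, against 10.1% of all genes. The trend-removed mitochondrial median was -0.17 with no filter on dim probes, -0.16 with probes above background in both RNAs, -0.16 with 10 bins and -0.19 with 40 bins. Matching within 0.25 gave -0.49 and within 1.0 gave -0.31.

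Over the arrays alone (array 2, then array 1), the cytosolic median was -0.24 and -0.44, the mitochondrial one -0.18 and -0.21, their difference -0.065 and -0.23, the pairs -0.45 and -0.35, and the trend-removed medians -0.25 and -0.41 (cytosolic) and -0.21 and -0.20 (mitochondrial). Array 1 alone put 29 cytosolic genes lower under the smaller rule against 13 on array 2, and each array alone put 1 cytosolic gene lower under the 2-fold rule, with 0 mitochondrial genes on array 2 and 1 on array 1. On 1 array each rule is a single cut-off. The shares of all genes given above therefore do not apply to these counts, and those of 1 array are not given here. The share of lower among called genes was 42.9% of all genes in the values above, 50.8% in the software's ratios and 56.0% under median centring, and for mitochondrial genes 72.7%, 83.3% and 93.8%. No paired analysis was possible because both arrays hold 1 RNA pair. With 1 replicate per group, the spread between cultures was not measured, and for cytosolic genes above a log2 intensity of 15 the arrays differed more (median SD 0.216) than for those below it (0.136).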
